A study of Mus musculus with 16 samples.

Results

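The D cyclins and the inhibitors of cyclin-dependent kinases were read from the deposited transcript table by gene symbol. The 10 genes were Ccnd1, Ccnd2 and Ccnd3, the CIP/KIP inhibitors Cdkn1a, Cdkn1b and Cdkn1c, and the INK4 inhibitors Cdkn2a, Cdkn2b, Cdkn2c and Cdkn2d, out of 29060 genes with a symbol. They held 73 transcript entries, and all 10 were among the 15222 genes that passed the filter on low values. The libraries were made from total RNA of mouse preadipocytes, cells that can be turned into fat cells in culture and that were grown from the stromal-vascular fraction of fat of the C57BL/6N UCP1 reporter strain, an allele that all groups carry. Brown preadipocytes came from interscapular BAT, a heat-producing depot, and white preadipocytes from inguinal WAT, a subcutaneous storage depot. There were 4 libraries each of brown cells with Fgf8b (label ibat_fgf), brown control cells (ibat_ctrl), white cells with Fgf8b (iwat_fgf) and white control cells (iwat_ctrl). Fgf8b is a secreted fibroblast growth factor. The sources used here do not state what the controls received, the dose and time of Fgf8b or the age of the mice.

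D cyclins are the regulatory subunits that switch on the kinases Cdk4 and Cdk6 in G1 of the cell cycle, and growth factors acting through the ERK kinases are known to raise cyclin D1. Cdk4 and Cdk6 phosphorylate the retinoblastoma protein and its relatives, which releases E2F factors to transcribe the genes of S phase. INK4 proteins bind Cdk4 and Cdk6 and keep the cyclin out, whereas CIP/KIP proteins bind the complexes of cyclin and kinase, block Cdk2 and can also help to assemble the Cdk4 complexes. In preadipocytes the same genes set whether cells keep dividing or leave the cycle before they become fat cells.

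The Cdkn2a locus makes a pair of unrelated proteins from separate first exons. The p16Ink4a product is an INK4 inhibitor, and p19Arf binds Mdm2 and so stabilises p53. Cdkn2b, which encodes p15Ink4b, lies beside it on the same chromosome. The bases before these starts are shown because both genes differed between the depots in the same direction, and those before the downstream start of Cdkn2c because it was the only one of 11 starts of these genes with the E2F letters searched here. All are from RefSeq on GRCm38.p6, 250 bases before each start, 5′ to 3′ on the strand of the gene, in lower case, and the capitals mark the E2F letters TTTCGCG.
Cdkn2a, p19Arf start, chr4:89294620-89294869, minus strand: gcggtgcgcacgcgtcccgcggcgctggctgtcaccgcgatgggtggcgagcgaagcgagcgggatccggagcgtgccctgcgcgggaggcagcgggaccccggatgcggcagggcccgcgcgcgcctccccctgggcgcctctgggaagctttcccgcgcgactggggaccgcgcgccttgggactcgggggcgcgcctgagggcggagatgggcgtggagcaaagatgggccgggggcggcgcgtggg
Cdkn2a, p16Ink4a start, chr4:89282193-89282442, minus strand: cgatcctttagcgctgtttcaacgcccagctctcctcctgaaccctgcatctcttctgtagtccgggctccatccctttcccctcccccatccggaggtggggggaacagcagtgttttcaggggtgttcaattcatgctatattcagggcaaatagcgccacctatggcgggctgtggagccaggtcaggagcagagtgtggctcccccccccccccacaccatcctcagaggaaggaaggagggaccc
Cdkn2b, chr4:89311033-89311282, minus strand: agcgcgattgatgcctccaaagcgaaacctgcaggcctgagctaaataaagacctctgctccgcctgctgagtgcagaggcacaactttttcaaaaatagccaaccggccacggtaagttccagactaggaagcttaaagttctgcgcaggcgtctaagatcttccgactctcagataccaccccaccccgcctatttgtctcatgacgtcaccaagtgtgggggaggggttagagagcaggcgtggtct
Cdkn2c, downstream start, chr4:109665373-109665622, minus strand: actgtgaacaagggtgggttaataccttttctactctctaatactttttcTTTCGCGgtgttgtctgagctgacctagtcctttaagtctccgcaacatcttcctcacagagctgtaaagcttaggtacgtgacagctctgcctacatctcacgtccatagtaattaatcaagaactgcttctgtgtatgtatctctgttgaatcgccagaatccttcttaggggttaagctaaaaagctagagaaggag

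The start used for p19Arf lies 12427 bases upstream of that for p16Ink4a, and the start of Cdkn2b lies 16413 bases upstream of it. RefSeq windows of 250 bases before to 50 bases after a start were at hand for 11 starts of 7 of the genes, namely Ccnd3, Cdkn1a, Cdkn1b, Cdkn2a, Cdkn2b, Cdkn2c and Cdkn2d, and windows of Ccnd1, Ccnd2 and Cdkn1c were not used here. Letters were searched on both strands, and none of the 5 motifs contains another. The E2F letters were found 200 bases before the downstream start of Cdkn2c, and 0.849% of 32851 windows hold them. The E-box CACGTG was found 34 bases after the same start and is held by 7.15% of all windows. Ccnd3 held the FOXO letters GTAAACA 243 bases before one start (3.65% of all windows) and the ETS letters CCGGAA 138 bases before another (14.9%). The AP-1 letters TGACTCA were in 0 of the 11 windows and in 5.202% of all. These matches describe letters and were not tested as binding sites.

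The libraries held 13740234 to 20126751 reads, as recovered from the steps between RPKM values. The labels number the white libraries from 1 to 8 and the brown from 9 to 16, so depot and numbering cannot be told apart. The design text speaks of 3 cultures while each group holds 4 libraries, so the spread between libraries, which is what every p below measures, may be technical in part. Brown control 15 stood apart: the chi-square of its reads against another brown control, divided by the degrees of freedom, was 8.35 to 9.17, where other pairs of a group gave 1.36 to 2.91. It was kept, and results that it moves are also given without it. Preadipocyte and fibroblast markers summed to 1094 to 1139 RPKM in brown Fgf8b, 2116 to 2544 in brown control, 1639 to 1827 in white Fgf8b and 3213 to 3307 in white control libraries. The highest of them was Col1a1 in the controls, with a mean of 1313 RPKM in brown and 1776 RPKM in white cells. With Fgf8b it was Thy1, at 555 RPKM in brown and 746 RPKM in white cells. These sums thus rest largely on single genes and do not count cells. The labels name the source as adipocytes, yet of the markers of mature fat cells Lep was at 0 in all 16 libraries and the list summed to 5.13 to 19.5 RPKM, mostly Fabp4. Endothelial markers summed to 1.46 to 1.88 RPKM in brown Fgf8b, 7.62 to 8.87 in brown control, 2.39 to 2.92 in white Fgf8b and 11.1 to 11.96 in white control libraries. Schwann cell markers summed to 2.89 to 3.97 RPKM in brown Fgf8b, 10.5 to 13.7 in brown control, 1.77 to 2.61 in white Fgf8b and 5.79 to 7.10 in white control libraries. Summed leukocyte markers reached at most 5.47 RPKM, muscle markers 2.42, epithelial markers 1.42 and mesothelial markers 0.421 RPKM. Of the factors that define muscle, Myod1 was at 0 in all groups. Myog was above 0 in brown controls and Myf5 in the controls of each depot, both too low to pass the filter. The endothelial sums of the controls were mostly Tek, with a mean of 6.58 RPKM in brown and 9.29 RPKM in white controls. The Schwann cell sums of the controls were mostly S100b, at 8.40 RPKM in brown and 5.69 RPKM in white controls. The differences of these sums thus mostly follow those genes. The part of such cells in the results below was not tested.

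Levels below are reads per kilobase of transcript, scaled to the reads of the library (RPKM), of the RefSeq entry of each gene with the highest mean, so that genes can be set side by side, as mean ± SD over n = 4 libraries. Changes are differences of log2(RPKM + 0.5), with the RPKM summed over all entries of a gene, given with their standard error (SE). They were tested with limma on all 15222 genes together and called at a Benjamini-Hochberg adjusted p under 0.05. The spread of a gene was estimated over all 4 groups, so a library also moves the p of comparisons without it. In bulk RNA, fewer cells that express a gene and less RNA of it per cell cannot be told apart.

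Fgf8b moved the cyclins and the inhibitors unevenly. In brown preadipocytes Ccnd1, Ccnd3 and Cdkn2d were higher with Fgf8b, Ccnd2, Cdkn1a, Cdkn1b, Cdkn1c and Cdkn2c were lower, and Cdkn2a and Cdkn2b were not called. That is 8 of 10 genes called, beside 71.4% of all genes tested, with 3 higher (36.7% of all genes) and 5 lower (34.7%). In white preadipocytes Ccnd1, Ccnd3, Cdkn2a, Cdkn2b and Cdkn2d were higher and Ccnd2, Cdkn1a, Cdkn1b, Cdkn1c and Cdkn2c were lower, all 10 called beside 65.7% of all genes, 36.3% higher and 29.5% lower. With most genes of the table called, these shares say little about the 10, and the sizes separate them better. Called and at least 2-fold were Ccnd1, Cdkn1a and Cdkn1c in each depot, beside 14.3% of all genes in brown cells (5.01% higher, 9.29% lower) and 11.7% in white cells (4.39% higher, 7.3% lower).

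**Figure D1:**
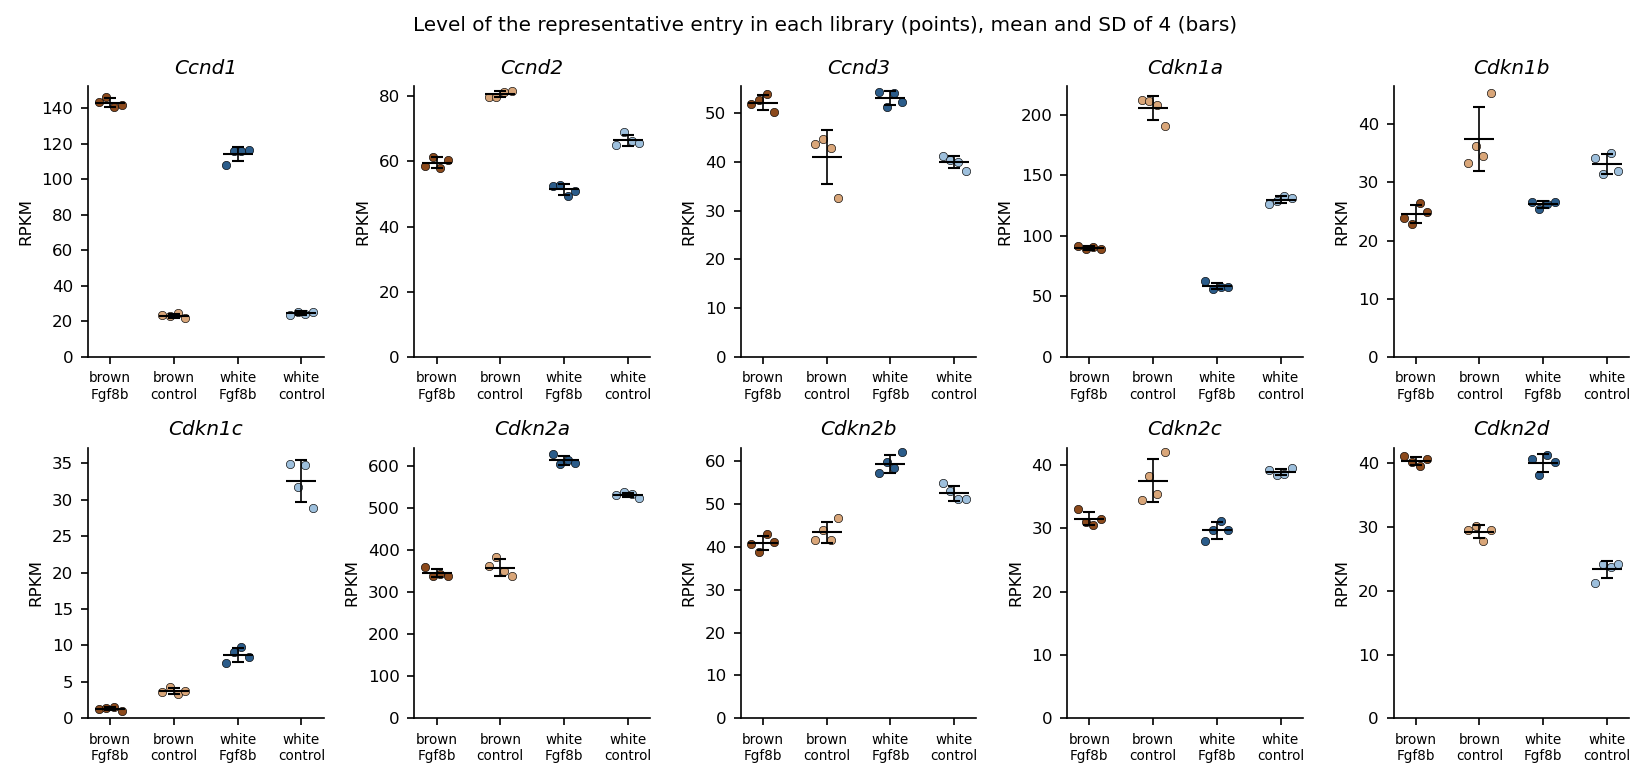
RPKM of the representative entry of each gene (vertical axis, from 0) in every library (points) of the 4 groups, with the mean and SD of 4 libraries as bars. Ccnd1 stands near 143 and 114 RPKM in the Fgf8b groups and below 26 RPKM in all 8 controls, while Cdkn1a and Cdkn1c are lower in each Fgf8b group than in its control.

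Among the D cyclins, Ccnd1 rose strongly, Ccnd3 rose modestly and Ccnd2 fell. Ccnd1, cyclin D1, had 144, 146, 141 and 142 RPKM in the brown Fgf8b libraries, against 23.7, 22.9, 24.5 and 21.9 RPKM in the brown controls. In white cells it had 108, 116, 116 and 116 RPKM with Fgf8b, against 23.3, 25.4, 24.3 and 25.4 RPKM in the controls. All 8 Fgf8b libraries lay far above all 8 controls, with no overlap. The values rested on 7139 to 8875 reads in Fgf8b and 1236 to 1905 reads in control libraries. The log2 change was 2.64 (SE 0.045, limma adjusted p = 2.1e-19), a 6.24-fold rise, in brown cells and 2.24 (SE 0.045, adjusted p = 3.1e-18), a 4.73-fold rise, in white cells. Ccnd1 was the second most abundant of the 10 genes with Fgf8b in each depot. In the controls it was near the bottom, at 23.2 ± 1.13 RPKM in brown and 24.6 ± 1.01 RPKM in white cells, where Cdkn2d at 23.4 ± 1.40 RPKM lay within its spread. By mean level the order in brown Fgf8b libraries was Cdkn2a, Ccnd1, Cdkn1a, Ccnd2, Ccnd3, Cdkn2b, Cdkn2d, Cdkn2c, Cdkn1b and Cdkn1c, and only the neighbours Cdkn2b and Cdkn2d lay within their spread. In brown controls it was Cdkn2a, Cdkn1a, Ccnd2, Cdkn2b, Ccnd3, Cdkn2c, Cdkn1b, Cdkn2d, Ccnd1 and Cdkn1c, and the run of levels between Cdkn2b and Cdkn1b lay within its spread. White Fgf8b libraries had the order Cdkn2a, Ccnd1, Cdkn2b, Cdkn1a, Ccnd3, Ccnd2, Cdkn2d, Cdkn2c, Cdkn1b and Cdkn1c, in which Cdkn2b and Cdkn1a, and Ccnd3 and Ccnd2, lay within their spread. White controls had Cdkn2a, Cdkn1a, Ccnd2, Cdkn2b, Ccnd3, Cdkn2c, Cdkn1b, Cdkn1c, Ccnd1 and Cdkn2d, in which Ccnd3 and Cdkn2c, Cdkn1b and Cdkn1c, and Ccnd1 and Cdkn2d lay within their spread.

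Ccnd2, cyclin D2, had 58.7, 61.3, 57.8 and 60.5 RPKM in brown Fgf8b libraries, against 79.7, 79.8, 81.2 and 81.5 RPKM in brown controls. It had 52.5, 52.7, 49.3 and 51.0 RPKM in white Fgf8b libraries, against 64.9, 68.9, 66.2 and 65.8 RPKM in white controls. The groups did not overlap in either depot, and the fall was small next to the rise of Ccnd1. The log2 change of Ccnd2 was -0.41 (SE 0.031, adjusted p = 8.4e-10) in brown and -0.33 (SE 0.031, adjusted p = 2.3e-08) in white cells. Ccnd3, cyclin D3, had 51.9, 52.7, 53.9 and 50.3 RPKM in brown Fgf8b libraries, against 43.6, 44.7, 42.9 and 32.7 RPKM in brown controls. In white cells it had 54.4, 51.3, 54.1 and 52.4 RPKM with Fgf8b and 41.3, 40.4, 40.1 and 38.2 RPKM in the controls. Every Fgf8b library exceeded every control of its depot, and brown control 15 was the low one among the brown controls. For Ccnd3 the log2 change was 0.38 (SE 0.075, adjusted p = 0.00019) in brown and 0.41 (SE 0.075, adjusted p = 9.2e-05) in white cells, and without brown control 15 the brown change was 0.26 (adjusted p = 3.8e-06).

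The make-up of the D cyclin RNA differed accordingly. Ccnd1 made up 56.1 ± 0.304% of the summed D cyclin RPKM in brown Fgf8b and 16.1 ± 0.393% in brown control libraries, and 52.2 ± 1.29% in white Fgf8b and 18.8 ± 0.684% in white control libraries. Ccnd2 made up 23.4 ± 0.467% in brown Fgf8b and 55.7 ± 2.80% in brown control libraries, and 23.5 ± 0.858% in white Fgf8b and 50.7 ± 0.435% in white control libraries. Ccnd1 was thus the leading D cyclin in every Fgf8b library and Ccnd2 in every control. The summed D cyclins came to 254.9 ± 3.70 RPKM in brown Fgf8b against 144.8 ± 5.84 RPKM in brown control libraries, and to 218.6 ± 2.36 RPKM in white Fgf8b against 131.0 ± 2.44 RPKM in white control libraries.

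The CIP/KIP inhibitors all fell with Fgf8b, in both depots. Cdkn1a, which encodes p21 and is a classical target of p53, had 91.5, 88.9, 90.7 and 89.0 RPKM in brown Fgf8b libraries, against 212, 212, 208 and 191 RPKM in brown controls. It had 62.6, 56.1, 57.7 and 57.7 RPKM in white Fgf8b libraries, against 127, 129, 133 and 131 RPKM in white controls. The groups did not overlap, and the brown Fgf8b libraries still lay below the lowest white control. Its log2 change was -1.16 (SE 0.045) in each depot, a 2.23-fold fall, with adjusted p = 4.2e-14 in brown and 5.4e-14 in white cells.

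Cdkn1c, which encodes p57 and is an imprinted gene expressed from the maternal allele, had 1.35, 1.36, 1.62 and 1.001 RPKM in brown Fgf8b libraries, against 3.55, 4.26, 3.36 and 3.70 RPKM in brown controls. In white cells it had 7.54, 9.11, 9.73 and 8.36 RPKM with Fgf8b, against 35.0, 31.7, 34.7 and 28.9 RPKM in the controls. The groups did not overlap in either depot, and the lowest white Fgf8b library lay above the highest brown control. The change was log2 -1.45 (SE 0.123, adjusted p = 3.9e-09) in brown and -1.87 (SE 0.123, adjusted p = 1.3e-10) in white cells. The brown Fgf8b values rested on 28 to 45 reads a library, against 93 to 128 reads in brown controls, so they are the least precise of these levels. Cdkn1b, which encodes p27, had 23.9, 22.8, 26.5 and 24.9 RPKM in brown Fgf8b libraries, against 33.3, 36.3, 34.6 and 45.5 RPKM in brown controls. It had 26.6, 25.4, 26.3 and 26.7 RPKM in white Fgf8b libraries, against 34.2, 31.4, 35.1 and 31.9 RPKM in white controls. The groups did not overlap, and brown control 15 was the high one. The log2 change was -0.58 (SE 0.066, adjusted p = 2.3e-07) in brown and -0.30 (SE 0.066, adjusted p = 0.00056) in white cells, and without brown control 15 the brown change was -0.49 (adjusted p = 1.8e-08).

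**Figure D2:**
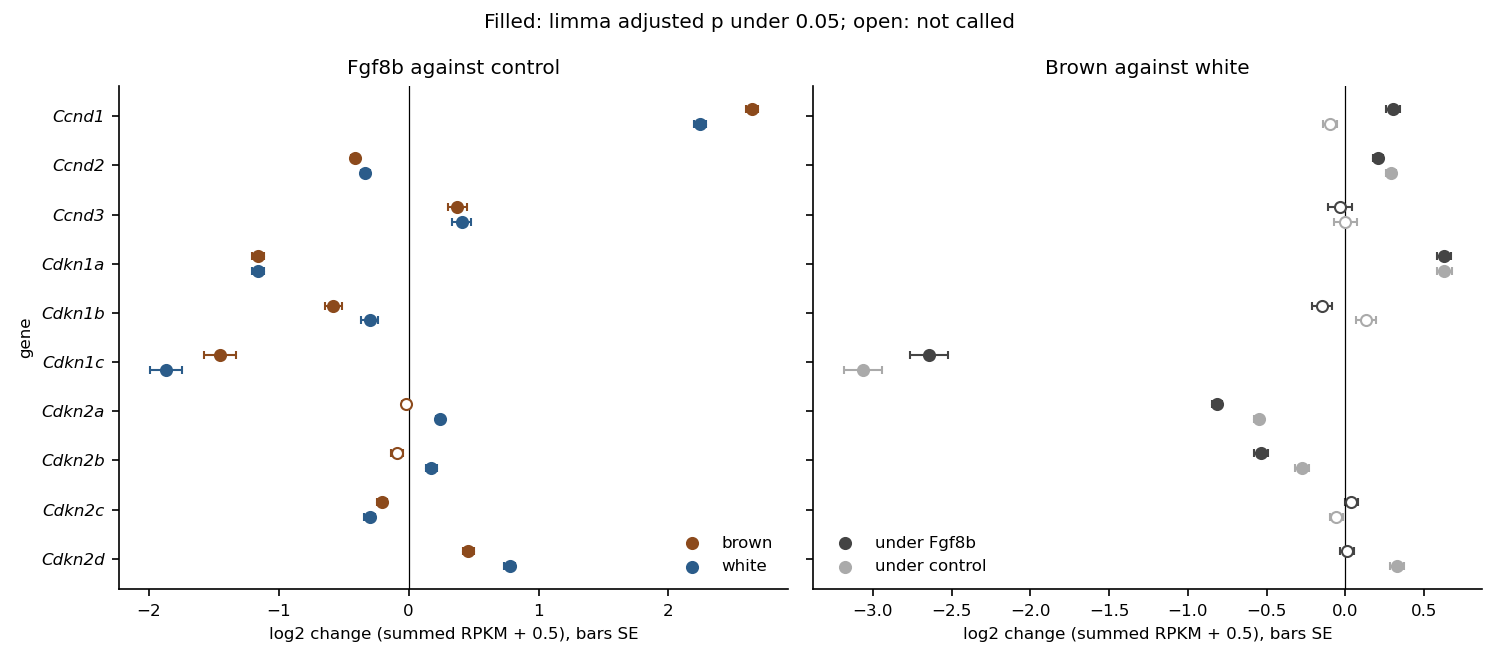
Log2 change of each gene with its SE (horizontal axis) for Fgf8b against control in brown and white cells (left) and for brown against white cells under Fgf8b and under control (right), with filled points called at an adjusted p under 0.05. On the left Ccnd1 stands alone at 2.64 and 2.24 and the CIP/KIP genes lie left of 0, and on the right Cdkn1c lies farthest out at -2.64 and -3.06.

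The INK4 inhibitors did not move together. Cdkn2d, which encodes p19Ink4d, rose in both depots, Cdkn2c, which encodes p18Ink4c, fell in both, and Cdkn2a and Cdkn2b rose in white cells and were not called in brown cells. Cdkn2d had 41.1, 40.3, 39.6 and 40.7 RPKM in brown Fgf8b libraries, against 29.5, 30.2, 27.8 and 29.6 RPKM in brown controls. It had 40.7, 38.1, 41.4 and 40.2 RPKM in white Fgf8b libraries, against 21.3, 24.2, 23.8 and 24.2 RPKM in white controls. With Fgf8b the depots overlapped, whereas the brown controls lay above every white control. Cdkn2d changed by log2 0.46 (SE 0.043, adjusted p = 1.5e-08) in brown and 0.78 (SE 0.043, adjusted p = 8.7e-12) in white cells. Cdkn2c had 33.1, 31.0, 30.6 and 31.5 RPKM in brown Fgf8b libraries, against 34.4, 38.3, 35.4 and 42.1 RPKM in brown controls, and 28.02, 29.8, 31.2 and 29.7 RPKM in white Fgf8b libraries, against 39.1, 38.4, 38.6 and 39.5 RPKM in white controls. The groups did not overlap, though brown Fgf8b 10 at 33.1 RPKM lay close under the lowest brown control at 34.4 RPKM. Its log2 change was -0.21 (SE 0.042, adjusted p = 0.00024) in brown and -0.30 (SE 0.042, adjusted p = 3.9e-06) in white cells.

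Cdkn2a was the most abundant of the 10 genes in every group. Its p16Ink4a entry had 359, 340, 344 and 338 RPKM in brown Fgf8b libraries, against 362, 384, 349 and 339 RPKM in brown controls. In white cells it had 629, 605, 614 and 608 RPKM with Fgf8b, against 530.1, 538, 533 and 524 RPKM in the controls. The brown groups overlapped, and the white groups did not. The log2 change was -0.02 (95% interval -0.09 to 0.04, adjusted p = 0.51) in brown and 0.24 (SE 0.030, adjusted p = 9.7e-07) in white cells. Scaling by the upper quartile gave -0.11 in brown cells (adjusted p = 0.0022), which would be called lower. Cdkn2b had 40.6, 38.9, 43.0 and 41.1 RPKM in brown Fgf8b libraries, against 41.5, 44.0, 41.5 and 46.6 RPKM in brown controls, which overlap. It had 57.2, 59.8, 58.3 and 62.0 RPKM in white Fgf8b libraries, against 54.8, 52.9, 51.0 and 51.2 RPKM in white controls, which do not. Its log2 change was -0.09 (95% interval -0.18 to 0.01, adjusted p = 0.093) in brown and 0.17 (SE 0.045, adjusted p = 0.0023) in white cells. In brown cells it was called lower under median-of-ratios scaling (-0.12, adjusted p = 0.026) and under upper-quartile scaling (-0.18, adjusted p = 0.0028).

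The transcripts of Cdkn2a share exons, and each read appears to have been counted for every entry it overlaps. The p19Arf entry, of 929 bases, and the p16Ink4a entry, of 850 bases, share 575 exon bases in GENCODE M21, so their RPKM values of 344 to 363 and 338 to 359 in brown Fgf8b, 335 to 365 and 339 to 384 in brown control, 604 to 624 and 605 to 629 in white Fgf8b and 500.2 to 509.7 and 524 to 538 in white control libraries rest largely on the same reads. If so, the difference of their reads, scaled to library size and given in RPM, counts those of the p19Arf first exon less those of the p16Ink4a first exon. It was 31.6, 34.0, 29.5 and 32.8 RPM in brown Fgf8b libraries, against 19.1, 12.7, 14.4 and 29.0 in brown controls. In white cells it was 44.2, 46.4, 45.1 and 44.4 RPM with Fgf8b, against 15.2, 12.03, 20.4 and 19.1 in the controls. Every Fgf8b library exceeded every control of its depot, and brown control 15 came closest, at 29.0 against 29.5 in the lowest brown Fgf8b library. Read this way, the p19Arf first exon exceeded the p16Ink4a first exon by more reads with Fgf8b in both depots. The entries differ in length, and such a difference also grows where both first exons rise, so it is not a balance. Per length, the RPKM ratio of the p19Arf to the p16Ink4a entry was 1.015 in brown Fgf8b and 0.972 in brown control libraries. It was 0.994 in white Fgf8b and 0.949 in white control libraries, with the shared exons in both entries. Which first exon changed cannot be read from these values, and no test was run on them.

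**Figure D3:**
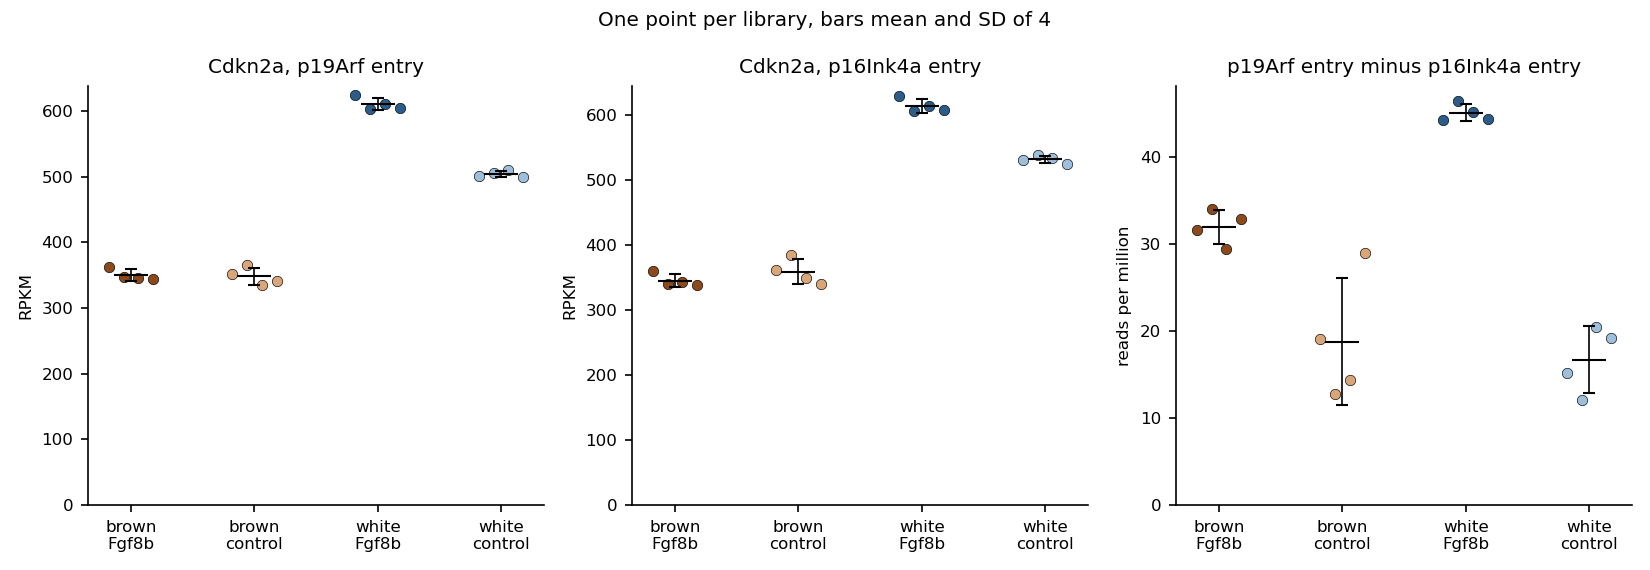
RPKM of the p19Arf and p16Ink4a entries of Cdkn2a (left and middle) and the reads of the p19Arf entry less those of the p16Ink4a entry, scaled to depth (right), one point for each library, with mean and SD of 4. The entries look alike because they share exons, while the difference is 29.5 to 46.4 in Fgf8b and 12.03 to 29.0 RPM in control libraries.

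Summed over each family, the D cyclins and the CIP/KIP inhibitors shifted in opposite directions. The CIP/KIP inhibitors came to 115.9 ± 2.49 RPKM in brown Fgf8b against 246.9 ± 5.22 RPKM in brown control libraries, and to 93.5 ± 2.49 RPKM in white Fgf8b against 195.7 ± 4.98 RPKM in white control libraries. The ratio of summed D cyclin to summed CIP/KIP RPKM was 2.20 ± 0.0748 in brown Fgf8b and 0.586 ± 0.0149 in brown control libraries, and 2.34 ± 0.0847 in white Fgf8b and 0.670 ± 0.0238 in white control libraries. It lay between 2.13 and 2.43 in the 8 Fgf8b libraries and between 0.567 and 0.700 in the 8 controls. The INK4 sum, 74.1 to 83.3% of it Cdkn2a, was 457.8 ± 11.3 RPKM in brown Fgf8b and 468.8 ± 19.2 RPKM in brown control libraries, which overlapped. It was 743.1 ± 9.46 RPKM in white Fgf8b and 646.0 ± 5.87 RPKM in white control libraries, which did not overlap. Its Cdkn2a part is the p16Ink4a entry, which shares most of its reads with the p19Arf entry, so the sum may hold p19Arf RNA. Within CIP/KIP, Cdkn1a was the main member everywhere, at 77.7% in brown Fgf8b, 83.3% in brown control, 62.6% in white Fgf8b and 66.4% in white control libraries. Cdkn1c made up 1.15% in brown Fgf8b, 1.505% in brown control, 9.31% in white Fgf8b and 16.6% in white control libraries. These are sums of RNA per length and say nothing of the proteins.

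**Figure D4:**
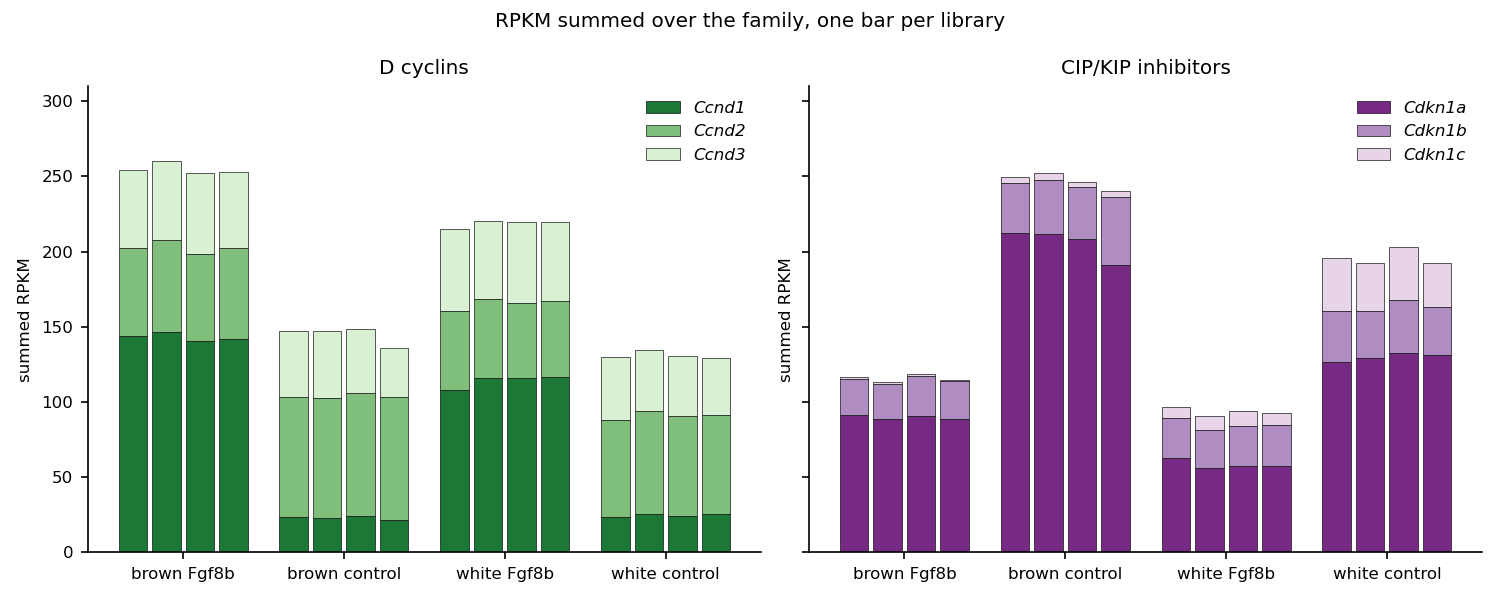
RPKM summed over the D cyclins (left) and the CIP/KIP inhibitors (right), one stacked bar for each library and axes starting at 0. The bottom segment of the left bars, Ccnd1, makes up 50.3 to 56.5% of the Fgf8b bars and 15.5 to 19.7% of the control bars, and the bottom segment of the right bars, Cdkn1a, is shorter in each Fgf8b group than in its control.

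Among the 10 genes, brown and white preadipocytes differed most in Cdkn1c, followed by Cdkn2a with Fgf8b and by Cdkn1a in the controls. Between the depots 3 genes were higher in brown, 3 lower and 4 not called, with Fgf8b (51.6% of all genes called, 26.9% higher and 24.7% lower) as well as in the controls (33.9% called, 18.1% higher and 15.9% lower). The tables of the depots may have been made separately, since 145 of 299 repeated accessions carried unequal values in white and 0 in brown libraries, so depot and table cannot be told apart here. Cdkn1c was lower in brown cells by log2 -2.64 (SE 0.123, adjusted p = 4.8e-12), 6.25-fold, with Fgf8b and by -3.06 (SE 0.123, adjusted p = 9.0e-13), 8.36-fold, in the controls. Cdkn2a differed by -0.82 (SE 0.030, adjusted p = 1.7e-13) with Fgf8b and by -0.55 (SE 0.030, adjusted p = 5.8e-11) in the controls. Its neighbour Cdkn2b differed by -0.54 (SE 0.045, adjusted p = 1.6e-08) with Fgf8b and by -0.27 (SE 0.045, adjusted p = 0.00010) in the controls. In each of these comparisons the brown libraries all lay below the white ones. Cdkn1c was the only one of the 10 that was called and at least 2-fold apart, beside 4.31% of all genes with Fgf8b (1.79% higher, 2.52% lower) and 3.36% in the controls (2.05% higher, 1.31% lower).

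Cdkn1a was higher in brown than in white cells by log2 0.63 (SE 0.045) under either treatment, with adjusted p = 2.0e-09 with Fgf8b and 2.8e-09 in the controls. Ccnd2 was higher in brown cells too, by 0.21 (SE 0.031, adjusted p = 2.1e-05) with Fgf8b and 0.29 (SE 0.031, adjusted p = 8.0e-07) in the controls. Ccnd1 was higher in brown cells with Fgf8b (0.31, SE 0.045, adjusted p = 1.5e-05). In the controls it was -0.10 (95% interval -0.19 to -0.0018) and not called (adjusted p = 0.11), but without white control 1 it was -0.13 and called lower (adjusted p = 0.032). Cdkn2d was higher in brown controls (0.33, SE 0.043, adjusted p = 7.5e-06), and with Fgf8b the difference was 0.01 (95% interval -0.08 to 0.10, adjusted p = 0.88). Ccnd3, Cdkn1b and Cdkn2c were not called under either treatment. With Fgf8b the 95% interval of Cdkn1b was -0.29 to -0.0097, wholly negative though not called (limma adjusted p = 0.068). The intervals with Fgf8b were -0.19 to 0.12 for Ccnd3 and -0.05 to 0.13 for Cdkn2c. In the controls the intervals of all of them lay between -0.16 and 0.27. Without brown control 15, Ccnd3 was called higher in brown controls (0.11, adjusted p = 0.023). Cdkn1b was then called lower in brown cells with Fgf8b (adjusted p = 0.0065), at an unchanged -0.15. That library is not part of the comparison with Fgf8b and moved its p only through the spread shared by all groups.

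The response to Fgf8b itself differed between the depots for 5 of the 10 genes, beside 34.9% of all genes. As a difference of the log2 changes, brown minus white, Ccnd1 had 0.40 (SE 0.063, adjusted p = 7.5e-05), the only called gene with a higher value in brown cells (17.1% of all genes), so that its rise was larger there. The other 4 had lower values in brown cells (17.8% of all genes). Cdkn2d had -0.32 (SE 0.060, adjusted p = 0.00047), since its rise was larger in white cells. Cdkn1b had -0.28 (SE 0.093, adjusted p = 0.026), a larger fall in brown cells, but the call was lost with RefSeq entries alone (-0.26, adjusted p = 0.056) and on leaving out any of 4 single libraries, given with the other alternatives below. Cdkn2a had -0.26 (SE 0.043, adjusted p = 9.5e-05) and Cdkn2b -0.26 (SE 0.064, adjusted p = 0.0037), so that the changes in white cells exceeded those in brown cells. None of the 10 differed by 2-fold or more, beside 3.97% of all genes (1.46% higher, 2.51% lower). For Cdkn1a the difference was -0.00094 with a 95% interval of -0.14 to 0.13 (adjusted p = 0.99). Cdkn1c had 0.42 (95% interval 0.05 to 0.78, adjusted p = 0.070) and was called without brown Fgf8b 16 (0.57, adjusted p = 0.0027) and with the representative RefSeq entry alone (0.64, adjusted p = 0.0015). With fewer entries summed, the added 0.5 RPKM shrinks the fall of the low brown values more. Without it, log2 ratios of group means of its entries lay between -1.48 and -1.47 in brown and at -1.91 in white cells. Ccnd3 had -0.03 (adjusted p = 0.85) and, without brown control 15, -0.15 (adjusted p = 0.028).

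The entries of a gene changed in the same direction for 9 of the 10 genes, among entries with at least 10 reads in every library. All 8 entries of Ccnd1 had log2 ratios of group means from 2.60 to 2.70 in brown and from 2.20 to 2.29 in white cells. All 7 entries of Cdkn1a lay between -1.19 and -1.13 in brown and between -1.17 and -1.15 in white cells. For Ccnd2 all 10 entries were lower with Fgf8b, and for Cdkn1b all 9, in both depots. The 4 entries of Cdkn2a lay between -0.06 and 0.01 in brown and between 0.21 and 0.28 in white cells. The lowest entry of Ccnd3 lay at 0.02 in white cells, and Cdkn2b, among the 9, was not called in brown cells. Entries of a gene overlap, so these are not independent measurements. The share of all genes whose entries agree was not worked out, so the count says nothing particular about the 10 genes.

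Genes that work beside the D cyclins were read from 6 lists, of which all members were tested. Their counts with Fgf8b stand beside 36.7% of all genes higher and 34.7% lower in brown cells, and 36.3% higher and 29.5% lower in white cells. Of 11 G1 and S phase kinases, cyclins and activators, 9 were higher with Fgf8b in each depot and 0 lower, with a median log2 change of 0.45 in brown and 0.18 in white cells, beside 0.01 and 0.04 over all genes. The count of higher genes in white cells was 6 under each of 3 other scalings, under which 0 to 1 were called lower in white and 0 to 2 in brown cells. Cdc25a, the phosphatase that activates Cdk2, had 15.2 ± 0.637 RPKM in brown Fgf8b against 7.49 ± 0.260 RPKM in brown control libraries, a log2 change of 0.97 (SE 0.054), and 11.6 ± 0.715 against 7.78 ± 0.274 RPKM in white cells (0.53). Cdk6, a partner of the D cyclins, changed by 0.91 in brown and 0.77 in white cells but stayed low, at 1.85 ± 0.097 RPKM in brown Fgf8b and 0.872 ± 0.125 RPKM in brown control libraries. Cdk4, the other such partner, stood far higher, at 389.2 ± 5.47 RPKM in brown Fgf8b and 289.8 ± 10.9 RPKM in brown control libraries. It changed by 0.42 in brown and 0.14 in white cells and was named after its values were seen. Ccna2, cyclin A2, changed by 0.75 in brown and 0.70 in white cells.

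Of the 13 genes of the RB and E2F family, 10 were higher and 2 lower with Fgf8b in each depot, with medians of 0.47 in brown and 0.48 in white cells. The repressor E2f8 had 18.1 ± 0.494 RPKM in brown Fgf8b against 6.34 ± 0.265 RPKM in brown control libraries (log2 change 1.52, SE 0.054) and 14.4 ± 0.682 against 7.09 ± 0.428 RPKM in white cells (0.97). E2f4, which acts with the RB relatives, changed by 0.92 in brown and 0.74 in white cells, and E2f7, another repressor, by 0.82 and 0.76. The genes that were lower were Rb1, the retinoblastoma gene, at -0.75 in brown and -0.35 in white cells, and its relative Rbl2, at -0.42 and -0.17. Both were named after their values were seen. Of 17 E2F target genes of S phase, 17 were higher in brown and 14 in white cells, and 0 were lower, with medians of 0.59 and 0.35. Under the 3 other scalings 16 were higher in brown cells, and 1 was lower in white cells. The 3 not called in white cells were Cdt1, Mcm2 and Mcm6. The change of 11 of the 17, Cdt1, Mcm2 and Mcm6 among them, was higher in brown than in white cells by the test of the difference. That of 0 was lower, beside 17.1% and 17.8% of all genes. Under upper-quartile scaling 9 were higher. In the controls 5 of the 17 were lower and 1 higher in brown than in white cells, beside 15.9% and 18.1% of all genes. Rrm2, a subunit of ribonucleotide reductase, changed by 1.20 in brown and 0.81 in white cells, Cdc6, which loads the replicative helicase, by 1.15 and 0.77, and Cdc45, part of that helicase, by 1.10 and 0.89.

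Of 14 genes of the turnover of D cyclins and inhibitors, 11 were higher in brown and 9 in white cells, and 1 was lower in each, with medians of 0.16 and 0.12. Under the 3 other scalings 5 to 11 of the 14 were higher in brown and 6 to 7 in white cells. The 5 in brown cells, under upper-quartile scaling, are close to the share of all genes called higher. Skp2 and Cks1b, which mark p27 for degradation, changed by 1.02 and 1.03 in brown and by 0.69 and 0.91 in white cells, and Usp2, a deubiquitinase of cyclin D1, by 0.81 in brown and 1.09 in white cells. The lower gene was Gsk3b, the kinase that marks cyclin D1 for export and degradation, at -0.43 in brown and -0.38 in white cells, named after its values were seen. Of 17 transcriptional and chromatin regulators of the 10 genes, 10 were higher and 6 lower in brown cells and 7 higher and 9 lower in white cells, with medians of 0.19 and -0.12. The lower count in brown and the higher count in white cells are close to the shares of all genes. Hmga2, a chromatin protein that represses the Cdkn2a locus in neural stem cells of the mouse, had 134.0 ± 2.49 RPKM in brown Fgf8b against 7.90 ± 0.238 RPKM in brown control libraries, and 150.2 ± 8.68 RPKM in white Fgf8b against 12.1 ± 0.566 RPKM in white control libraries. Its log2 change was 4.06 (SE 0.040) in brown and 3.61 (SE 0.040) in white cells. The AP-1 genes Fosl1 and Jun, known activators of Ccnd1, changed by 3.40 and 2.21 in brown and by 2.08 and 1.73 in white cells.

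Other p53 target genes fell along with Cdkn1a. Of 20, 18 were lower with Fgf8b in each depot, beside 34.7% of all genes in brown and 29.5% in white cells, and 1 was higher, with medians of -0.76 in brown and -0.74 in white cells. Rrm2b, a subunit of ribonucleotide reductase, was not called, at -0.03 in brown and -0.05 in white cells. Trp53inp1, a stress-induced nuclear protein, had 8.01 ± 0.441 RPKM in brown Fgf8b against 37.5 ± 6.04 RPKM in brown control libraries (log2 change -2.21, SE 0.076) and 5.03 ± 0.407 against 25.5 ± 1.82 RPKM in white cells (-2.36). The death receptor gene Fas changed by -2.22 in brown and -1.34 in white cells, and Eda2r, a receptor of the same superfamily, by -1.49 and -1.92. The higher gene was Mdm2, the ligase that degrades p53, at 0.32 (adjusted p = 9.5e-08) in brown and 0.08 (adjusted p = 0.044) in white cells, and its white call was lost under all 3 other scalings. Trp53, the p53 gene itself, was higher at 0.70 in brown and 0.29 in white cells. Both were named after their values were seen. Like Cdkn1a, 16 of the 20 were higher in brown than in white cells in the controls and 0 lower, beside 18.1% and 15.9% of all genes, with a median of 0.45 beside 0.0048 over all genes. With Fgf8b 16 were higher and 2 lower, beside 26.9% and 24.7% of all genes, with a median of 0.48 beside 0.0055. The comparisons of the depots and those of Fgf8b share their libraries.

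**Figure D5:**
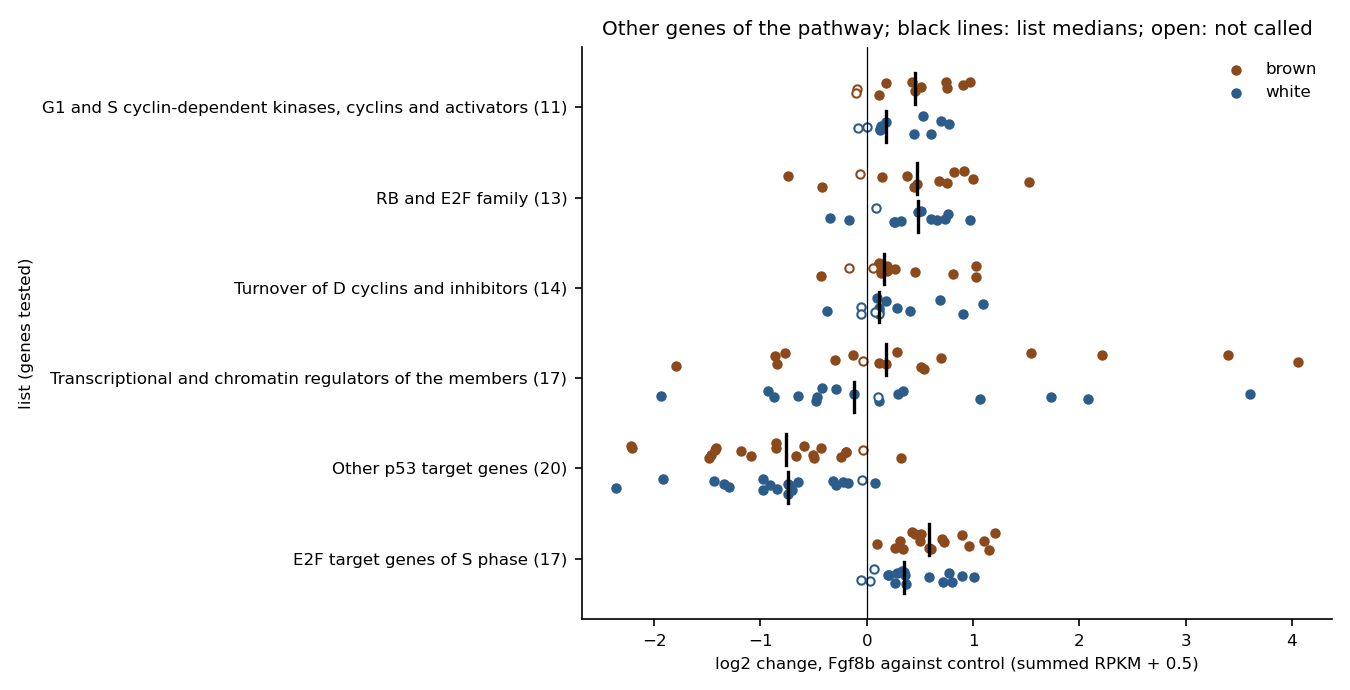
Log2 change with Fgf8b (horizontal axis) of the genes of 6 lists in brown and white cells, filled where called and open where not, with black lines at the list medians and the number of genes tested in brackets. The E2F targets lie mostly right of 0, with medians of 0.59 in brown and 0.35 in white cells, and the other p53 targets left of it, with medians of -0.76 and -0.74.

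The genes whose log2 values ran most like each member over the 16 libraries are given as a description. The libraries fall into 4 groups and share their depth and composition, so the correlations mostly repeat the order of the group means. For Ccnd1 they were Hsp90ab1, a heat shock protein (Pearson r = 0.998), and Sema7a, a membrane-bound semaphorin (0.998), which had 131.5 ± 3.13 RPKM in brown Fgf8b against 2.46 ± 0.280 RPKM in brown control libraries. Ccnd2 ran with Igfbp7 (0.991) and Actg2, a smooth muscle actin (0.991), and Ccnd3 with Dda1 (0.973) and Desi1 (0.971). Cdkn1a ran with Cyp1b1, a cytochrome P450 (0.995), and the transcription factor gene Gata6 (0.995). Cdkn1b ran with Sc5d, an enzyme of cholesterol synthesis (0.979), and Yipf4 (0.970), and Cdkn1c with the transcription factor gene Osr2 (0.989) and Adamts15 (0.988). For Cdkn2a they were Pygl, a glycogen phosphorylase (0.991), and Ndufa4l2 (0.983), and for Cdkn2b the cyclin G2 gene Ccng2 (0.979) and the proteoglycan gene Dcn (0.971). Cdkn2c ran with Akr1c14 (0.958) and Rmnd5a (0.957), and Cdkn2d with the tropomyosin gene Tpm4 (0.987) and Rftn1 (0.986). Among the 10 genes themselves, Cdkn2a and Cdkn2b had r = 0.952 and Ccnd2 and Cdkn1a had r = 0.983.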

How the data were processed

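The authors deposited one table of RPKM values for 168326 transcript entries in 16 libraries, written with decimal commas. The libraries were made with the TruSeq RNA kit v2, per the labels' protocols, and this kit does not mark strand, so overlapping and antisense genes cannot be told apart. CASAVA and bcl2fastq are named in the submitters' processing notes. The aligner, the counting and the genome build are not stated there. No value was below 0 and the highest was 9575.12 RPKM. Depths were fitted to 46002 Ensembl entries of known length. Of their values above 0 and worth 50 reads or fewer, 95.6 to 95.99% per library came within 0.1 of a whole read. The share was taken on the same entries as the fit, so it is not an independent check, and other entries were not part of it.

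Entries without a symbol (23172) or with a repeated accession (808) were left out, and the remaining 144549 were added up for each symbol. A gene was tested where 4 or more libraries reached 0.5 RPKM, on log2(RPKM + 0.5), a scale that understates changes of low genes. The test was limma 3.58.1 (R 4.3.3, mean-variance trend, robust moderation, 4 group means). It was also run on simulated data with independent libraries and few changed genes. That setting is unlike these data and does not vouch for the calls. Python 3.11.15 with pandas 2.3.3 and numpy 2.4.6 made the tables, and matplotlib 3.10.9 the figures.

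The members and lists were chosen with earlier results of these data known. Besides the members, each list gave its 3 most changed genes called at a mean of at least 1 RPKM, and each member the 2 genes most correlated with it. Alternatives were other pseudocounts, filters, scalings, entry choices, fits and single libraries left out. One was chosen after seeing the data: the counts of the lists without brown control 15. Promoter sequences are from RefSeq on GRCm38.p6.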

Additional observations from a re-analysis of the deposited data

Results flagged for a closer look

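Libraries far from the other 3 of their group, by the gap to the nearest as a share of the range, were found in 3 of 40 groups of a gene, where chance gives about 1 in 20 groups, or 2. They were the lowest Ccnd1 value of the white Fgf8b libraries, 108.2 RPKM in library 2, the lowest Ccnd3 value of the brown controls, 32.7 RPKM in library 15, and the lowest Cdkn2d value of the white controls, 21.3 RPKM in library 1.

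The response to Fgf8b differed between the depots by the test of the difference of the log2 changes, brown minus white, for 5 genes. The differences were 0.40 for Ccnd1 (limma adjusted p = 7.5e-05), -0.28 for Cdkn1b (0.026), -0.26 for Cdkn2a (9.5e-05), -0.26 for Cdkn2b (0.0037) and -0.32 for Cdkn2d (0.00047). Depot, library number and possibly the making of the table cannot be told apart in them.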

How the results depend on the processing

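No paired analysis was possible because no library number is shared between groups; the numbers alternate between control and Fgf8b within a depot, but no label says that neighbouring numbers share a culture, so they were not paired. For the 10 genes, every call with Fgf8b and every direction of a call held under the alternatives run, and the one call lost in another comparison was that of Cdkn1b for the difference of the responses. It was lost with RefSeq entries alone (-0.26, limma adjusted p = 0.056 for the representative entry and 0.054 for the sum), without trend and robust moderation (0.050), and without white Fgf8b 8, white control 3, white control 7 or brown Fgf8b 12, over a range of -0.32 to -0.19 on leaving out single libraries. In the difference of the responses 2 members were higher, with Cdkn1c added, under a pseudocount of 1 (0.47, adjusted p = 0.035), with the representative RefSeq entry alone (0.64), with the sum over RefSeq entries alone (0.55) and without brown Fgf8b 16 (0.57). Leaving out single libraries gave 1 to 2. A larger pseudocount or fewer summed entries shrink the fall of the low brown values more. How much of the shift that makes up was not tested.

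Directions turned only for members not called. Leaving out single libraries gave -0.041 to 0.0050 for Cdkn2a with Fgf8b in brown cells, -0.014 to 0.022 for Cdkn2d between depots with Fgf8b, -0.051 to 0.11 for Ccnd3 between depots in the controls, and, for the difference of the responses, -0.15 to 0.018 for Ccnd3 and -0.043 to 0.035 for Cdkn1a. Cdkn2d between depots with Fgf8b was -0.021 under upper-quartile scaling. Ccnd3 between depots in the controls was 0.024 with the representative entry, 0.026 with the RefSeq sum and 0.022 with voom on recovered reads. The difference of the responses of Cdkn1a was 0.016 under median-of-ratios and 0.017 under TMM scaling. The cause was not tested.

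Other members crossed into a call. Cdkn2b with Fgf8b in brown cells was called lower without brown Fgf8b 14 (-0.11, adjusted p = 0.044) and without brown control 9 (-0.11, 0.049), within a range of -0.11 to -0.052. Cdkn1b between depots with Fgf8b was called under upper-quartile scaling (-0.18, 0.037), with only the 2 groups fitted (0.012) and without brown Fgf8b 14 (-0.19, 0.035), and in the controls with voom (0.17, 0.048). Counts of lists without brown control 15, chosen after seeing the data, moved by more than 1.5 times for 6 of them; among these, the lower turnover genes in brown cells were 2 instead of 1, and the lower E2F targets between depots were 2 instead of 0 with Fgf8b and 3 instead of 5 in the controls. The fit of only the compared groups was not run for the difference of the responses. Depth limits Cdkn1c in brown Fgf8b libraries, at 28 to 45 reads.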
